A study of Rattus norvegicus with 4 samples.

Results

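Fuzzy nucleosome positions of control rat sperm are described here, that is, positions where the reads of untreated sperm were spread widely around their summit. A position was included when its centre lay within 10 bp in both treatment tables of chromosome 2 and both control libraries, pooled, had an occupancy of 12 to 40 units at the summit and a fuzziness score of at least 55 in both tables. These limits were met by 16405 of 279161 matched positions (5.88%), and by 12.9% of the 126972 positions in the occupancy band. The other positions of the band served for comparison. Of these, 110328 scored under 55 in both tables and are called sharper positions below, and 239 fell on different sides of the limit in the 2 tables and were left out.

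The study sequenced DNA that micrococcal nuclease (MNase) left intact in caudal epididymal spermatozoa of Holtzman rats, to ask how nucleosomes of sperm differ after treatment with either of 2 drugs. The rats were 75 days old and weighed about 300 g, with 6 animals in each group. Controls received water by mouth. The other groups received cyproterone acetate, which blocks the androgen receptor, at 20 mg/kg per day, or tamoxifen, a modulator of the estrogen receptors, at 0.4 mg/kg per day, both by mouth for 60 days. There were 2 control libraries and 1 library for each treatment, and the number of animals behind each library is not in the labels. All libraries came from equal numbers of sperm, pretreated with dithiothreitol (DTT) for 2 h, digested with 4 units of MNase at 37 °C for 2 min and selected on a 2% agarose gel at about 150 bp. The assay holds no markers of cell type, so the purity of the sperm could not be checked from these data. With 1 library for each treatment, a difference between conditions has no replicate check, no test between them was run, and every value below is a description of these libraries. The headers do not tell control replicate 1 from 2, so the controls are called the deeper and the shallower one.

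In maturing spermatids most histones are replaced by protamines, small basic proteins that pack the DNA tightly, and a minority of nucleosomes is retained in mature sperm. MNase cuts the DNA between nucleosomes and spares the DNA wrapped around the histones, so each protected fragment marks one nucleosome in one cell. Where the nucleosome sits on the same bases in every cell, fragments pile up on a narrow summit. Where it sits on different bases from cell to cell, or where neighbouring placements exclude each other, fragments spread out and the position is called fuzzy.

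Little sequence depth stood behind each position. At a summit, 1 read was worth 6.37 units of occupancy in the cyproterone acetate library, 7.13 in the tamoxifen library, 7.60 in the deeper control and 8.44 in the shallower control. A read of the pooled controls was worth 4.05 to 4.84 units. The median fuzzy position thus held 3.16 pooled reads (occupancy 14.5 in the cyproterone acetate table), and 95% of the fuzzy positions held at most 5.47. Their pooled fuzziness had a median of 57.8 and ran from 55.0 to 78.7. Sharper positions held a median of 3.90 pooled reads and a median pooled score of 45.4. The share of fuzzy positions fell with the pooled occupancy: it was 17.5% of the band between 12 and 16 units, 11.8% between 16 and 20, 8.83% between 20 and 25 and 4.71% between 25 and 40. All these values come from the columns that chose the positions and are given as a description. A read on its own already has a score, which depends on the library: the commonest score at 1 read was 39.1 with cyproterone acetate, 38.2 with tamoxifen, 37.8 in the deeper and 37.0 in the shallower control.

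The fuzzy positions lay along the whole of chromosome 2. In bins of 10 Mb they made up 11.5% to 15.8% of the occupancy band, with a median of 12.7% over 27 bins. The densest 100 kb ran from 194700001 to 194800000 of chromosome 2 (build rn6) and held 29 fuzzy positions among 85 in the band. Of the fuzzy positions, 86.2% were not next to another fuzzy position among all positions of the cyproterone acetate table. They were only 16405 of the 969963 positions there, and the share standing alone that random placement would give was not computed. Whether they adjoined each other more often than at random placement was not tested. The longest series held 5 fuzzy positions in a row, between bases 59402982 and 59403762.

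Fuzzy positions were crowded. The nearest called position lay a median of 117 bp away in the cyproterone acetate table and 120 bp away in the tamoxifen table, against 150 bp in both for sharper positions. A nearest centre closer than 150 bp, about the length of the fragments that were sequenced, was found for 84.1% and 84.0% of the fuzzy positions and for 49.3% and 46.7% of the sharper ones. Neighbours closer than 150 bp on both sides were found for 28.1% of fuzzy and 8.41% of sharper positions in the cyproterone acetate table. The pooled reads that set the score also helped to place the neighbours, so the crowding is not independent of how the positions were chosen.

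In the treated libraries the summit was often without a read. No read lay at the summit of 42.2% of the fuzzy positions with cyproterone acetate (6926 positions, exact 95% interval 41.5% to 43.0%, counting error only) and of 42.2% with tamoxifen (6930 positions). Sharper positions were empty at 39.6% and 42.6%. In both treated libraries at once, 23.4% of the fuzzy and 23.1% of the sharper positions were empty. Since fuzzy positions lay lower in the occupancy band, the shares were also taken within its 4 bins, from the lowest occupancy to the highest. With cyproterone acetate, 44.5%, 41.0%, 36.1% and 32.0% of the fuzzy summits were empty, against 43.7%, 39.6%, 36.1% and 31.8% of the sharper ones. With tamoxifen the shares were lower at fuzzy positions in each bin, at 45.9%, 39.9%, 33.2% and 27.3% against 47.7%, 42.7%, 38.5% and 32.4%. The groups differed further in what surrounded an empty summit. Reads lay elsewhere within the 200 bp position for 73.0% (cyproterone acetate) and 70.4% (tamoxifen) of the empty fuzzy summits, and for 57.1% and 50.9% of the empty sharper ones. Positions with no read at all were therefore rarer among the fuzzy ones, at 11.4% and 12.5%, than among the sharper ones, at 17.0% and 20.9%. A position of 200 bp overlaps any neighbour centred closer than that, and fuzzy positions had the closer neighbours. Whether the reads elsewhere belonged to a neighbour was not tested. Matched positions were empty more often. Among the positions that met the limits in the table of that treatment alone, with no match to the other table, 29.0% were empty in each treated library.

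Where treated reads were present, fuzzy positions also scored higher than sharper ones in the treated libraries. The limits on occupancy and score did not use the treated reads, but the match did, since the centre of a position is the mean of the pooled and the treated summit, and both groups were matched in the same way. The treated score of fuzzy positions moved with the match, from 57.5 in both treatments for identical centres to 49.1 and 48.9 with no match. The median treated score was 50.4 with cyproterone acetate (9479 positions, quartiles 41.1 and 59.0) against 46.7 at sharper positions (66649 positions). With tamoxifen it was 50.2 (9475 positions, quartiles 40.7 and 59.0) against 45.4 (63308 positions). A treated score of 55 or more was reached by 34.3% of fuzzy against 20.2% of sharper positions with cyproterone acetate, and by 34.1% against 18.5% with tamoxifen. Among positions with at least 3 treated reads these shares were 14.1% against 5.53%, and 12.9% against 5.10%. Within each of the 4 occupancy bins the median of the fuzzy positions was also the higher one, at 50.2 to 51.8 against 46.6 to 46.8 with cyproterone acetate and at 49.9 to 51.3 against 43.9 to 46.6 with tamoxifen. The distributions overlapped widely, and both groups had a peak at the score of a read on its own.

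**Figure D1:**
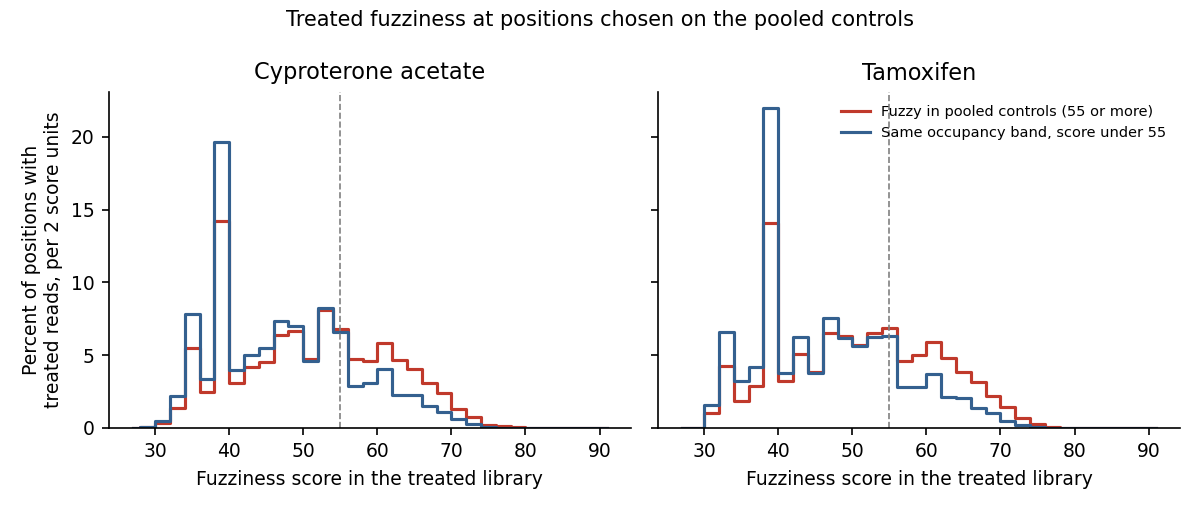
Percent of positions (vertical axis, per 2 score units) by fuzziness score in the cyproterone acetate (left) and tamoxifen (right) library, for positions with treated reads that were fuzzy in the pooled controls (red) or sharper in the same occupancy band (blue). The red line lies above the blue one to the right of the dashed limit of 55, where it holds 34.3% and 34.1% of the positions, and both lines peak just below 40.

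The score at fuzzy positions moved with the number of treated reads. At 1 read the median score of fuzzy positions was 54.7 with cyproterone acetate and 54.5 with tamoxifen, and at 4 reads it was 45.9 and 45.4. Sharper positions had medians of 48.9 and 42.5 at 1 read and of 43.1 and 42.2 at 4 reads. From 1 to 8 treated reads the median of the fuzzy positions was above that of the sharper ones at every read number in both libraries. The share of scores of 55 or more was also higher at each number, except with tamoxifen at 8 reads, where none of 16 fuzzy positions and 1.60% of 125 sharper ones reached it.

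**Figure D2:**
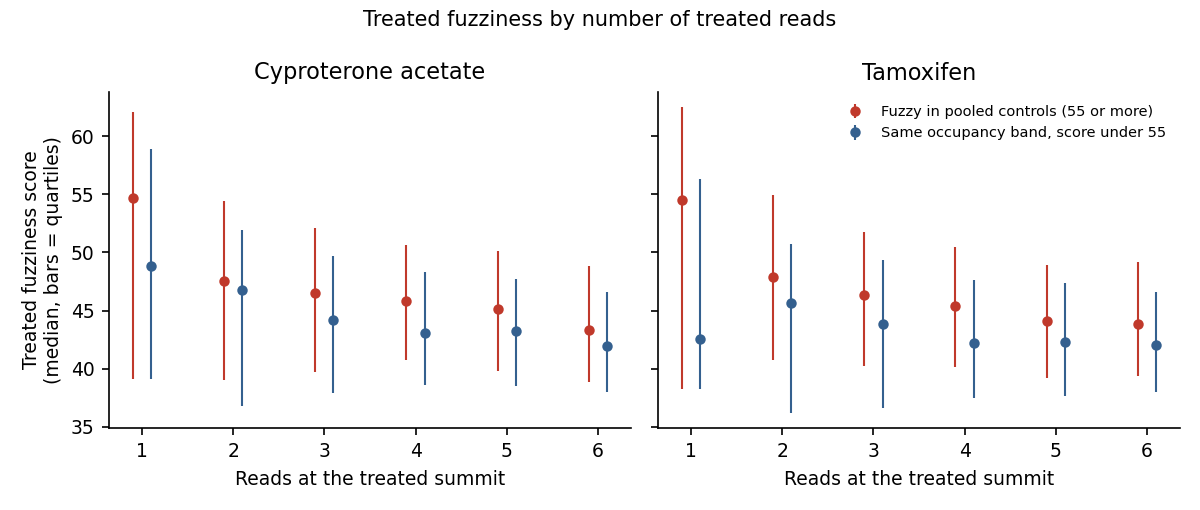
Median treated fuzziness score with quartiles (bars) by the number of reads at the treated summit, for positions fuzzy in the pooled controls (red) and sharper ones (blue). At fuzzy positions the medians fall from 1 read to 4 reads, to 45.9 and 45.4, and the red medians stay above the blue ones at each of the 6 read numbers plotted.

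Fuzziness was shared by both treated libraries at a minority of positions. Reads were present in both treated libraries at 6393 fuzzy positions. Of these, 800 (12.5%) scored 55 or more in both, 35.9% in 1 of 2 and 51.6% in neither, against 4.34%, 25.4% and 70.2% of 45138 sharper positions. With at least 3 reads in both, 50 of 762 fuzzy positions (6.56%, exact 95% interval 4.91% to 8.56%) were fuzzy in both, against 53 of 5390 sharper ones (0.983%, 0.737% to 1.28%). A score of 55 or more in both treated libraries was thus commoner at fuzzy than at sharper positions, but both scored under 55 at 73.8% of the fuzzy positions with this depth.

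The score was lower in the treated library than in the pool at 74.9% of the fuzzy positions with cyproterone acetate and at 75.1% with tamoxifen, against 43.4% and 48.1% of the sharper ones. Over all matched positions with treated reads it was lower at 59.4% and 64.2%. Since the fuzzy positions were chosen for a high pooled score, and the sharper ones for a lower one, these shares are partly set by the choice. The control libraries show a drop from the choosing library without a drug, but at a separately chosen set, picked on 1 library in place of the pool. The size of that drop cannot be carried over to the fuzzy positions above. Positions were chosen a second time on 1 control library alone, with the same occupancy limits expressed in reads (2.61 to 8.70) and the same score limit, and read in the other control and in both treated libraries.

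With the deeper control as the choosing library, 5263 positions were chosen, with a median score of 57.1, and 1121 of them were found in both treatment tables. At these the shallower control had a median of 48.8 (627 positions with reads), cyproterone acetate 52.5 (621 positions) and tamoxifen 52.7 (634 positions). A score of 55 or more recurred in 29.7% of positions in the shallower control, in 40.3% with cyproterone acetate and in 38.5% with tamoxifen. With the shallower control as the choosing library, the median was 57.4 at 4935 positions and 980 were found in both treatment tables. There the deeper control had a median of 49.2, cyproterone acetate 54.3 and tamoxifen 54.5, and the shares of 55 or more were 29.9%, 46.3% and 47.7%. In both directions the untreated library that took no part in the choice also scored well below the choosing one, and neither treated library had a median below that of the untreated one.

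At positions within the same read limits that were under 55 in the choosing control, the treated libraries were likewise above the other control: 47.3 and 46.6 against 39.7 for the deeper control as the choosing library, and 47.1 and 46.5 against 42.2 for the shallower. The higher treated score was therefore seen at fuzzy and sharper positions alike. The 2 kinds of library differ in 2 measured ways: a lone read scores 37.0 or 37.8 in the controls and 38.2 or 39.1 in the treated libraries, and the other control was read at centres of the table it helped to make, while the treated libraries were read at centres of their own tables that lay within 10 bp. Their part in the difference was not tested. With at least 3 reads, the medians at fuzzy positions drew closer, at 46.3 in the other control, 48.3 with cyproterone acetate and 47.6 with tamoxifen for the deeper control as the choosing library, and at 46.1, 48.8 and 48.7 for the shallower.

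**Figure D3:**
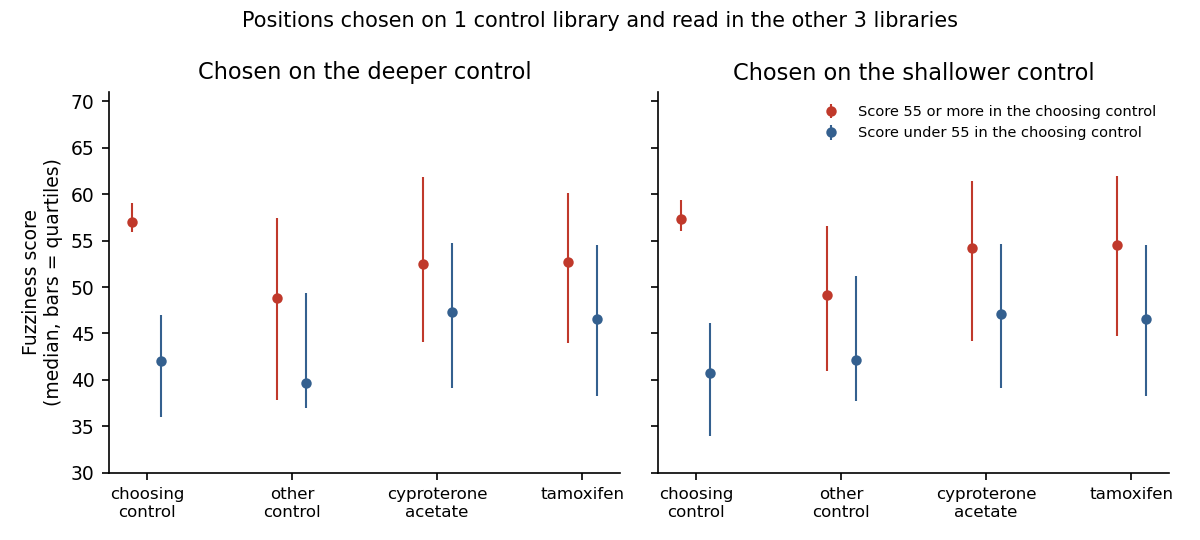
Median fuzziness score with quartiles (bars) in the choosing control, the other control and both treated libraries, for positions with a score of 55 or more (red) or under 55 (blue) in the deeper (left) or shallower (right) control. The red median is 57.1 and 57.4 in the choosing control, over all 5263 and 4935 positions chosen. In the other control it is 48.8 and 49.2, over the 627 and 579 that were found in both treatment tables and had reads. Both treated medians lie above the other control in red and in blue.

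The controls also differed at the fuzzy positions themselves. Of the 16405, 7441 (45.4%) were found in the table that compares both controls, and 61.3% of these had reads in both libraries. Among those 4563 positions, 19.8% scored 55 or more in both controls, 65.9% in 1 of 2 and 14.3% in neither. The summits of both controls lay a median of 0 bp apart where both were fuzzy, 10 bp apart where 1 was and 55 bp apart where neither was. In the last class both controls scored under 55 while the pool scored 55 or more. Whether the distance between their summits made the pool fuzzy was not tested. These values are part of what chose the positions and are given as a description.

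Spacing and treated fuzziness moved together. When positions were sorted by the distance to the nearest position in the same table, the median cyproterone acetate score of fuzzy and sharper positions was 54.7 and 54.7 at 75 to under 110 bp, 51.3 and 51.1 at 110 to under 150 bp, and 43.2 and 40.01 from 150 bp on. With tamoxifen the pairs were 54.6 and 54.5, 51.1 and 50.4, and 42.6 and 38.2. Within the crowded classes the medians of fuzzy and sharper positions were thus within 1 unit of each other. With at least 3 cyproterone acetate reads, scores of 55 or more were still more frequent at fuzzy positions, at 18.5% against 13.3%, 15.4% against 8.52% and 5.07% against 2.15% in the 3 classes. The treated reads themselves helped to place the neighbours in that table. Sorted by the spacing in the other treatment table, which holds none of the reads scored, fuzzy positions kept higher medians in each class: 52.2 against 48.1, 50.5 against 47.6 and 48.6 against 45.2 with cyproterone acetate, and 52.2 against 47.2, 50.7 against 46.9 and 47.9 against 43.5 with tamoxifen. How much of the treated fuzziness goes with crowding thus depends on whose reads define the spacing. Both treatment tables share the pooled controls, so even the second sorting is not free of the reads that chose the positions.

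**Figure D4:**
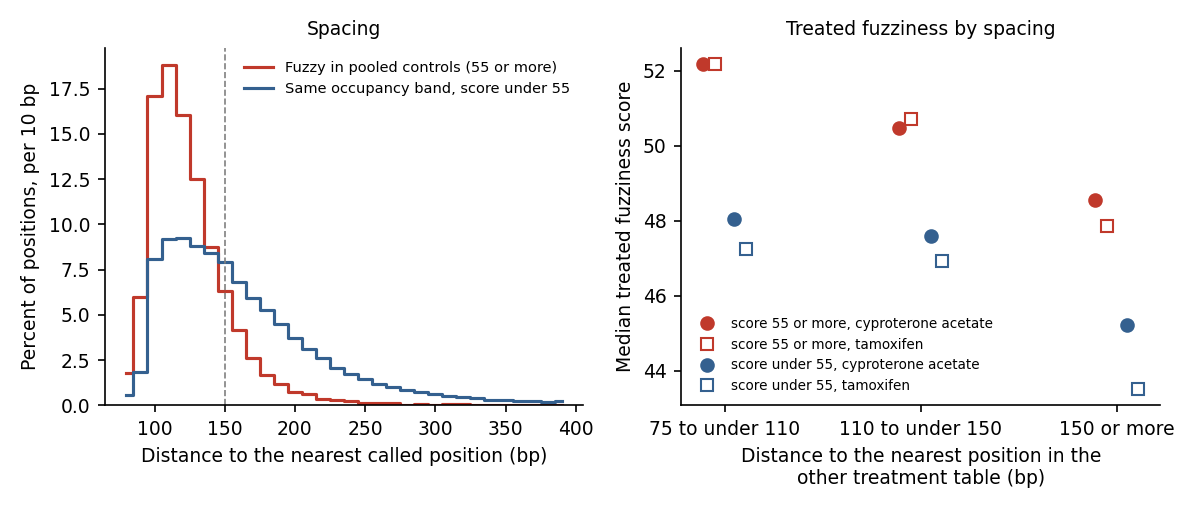
Left, percent of positions per 10 bp by distance to the nearest called position in the cyproterone acetate table, for fuzzy (red) and sharper (blue) positions, with a dashed line at 150 bp; 84.1% of the red and 49.3% of the blue positions lie below it. Right, median treated score by the spacing in the other treatment table, where fuzzy positions lie above sharper ones in all 3 classes for both treatments.

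Treated occupancy was below the pool at most fuzzy positions, as in the band as a whole. In the authors' deposited tables the median log2 ratio of occupancy, turned to treated over pool, was -2.09 at fuzzy and -2.09 at sharper positions with cyproterone acetate, and -1.77 and -2.10 with tamoxifen. Over all matched positions it was -1.45 and -1.46. The size of these ratios rests on empty summits, where the tables put 1 unit in place of 0. Among positions with treated reads, the medians in the authors' deposited tables were -1.04 and -0.77 at fuzzy and -1.09 and -0.82 at sharper positions. The ratio of the summit values themselves, taken at each library's own summit, had medians of -0.60 and -0.30 at fuzzy and -0.81 and -0.60 at sharper positions. The choice required a pooled occupancy of at least 12 and no treated occupancy, and the match kept many empty summits, so these falls are partly set by the choice. With no match the medians in the authors' deposited tables were -1.53 and -1.26.

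The limits used in this paragraph were set here. By the ratios in the authors' deposited tables, a position was at least 2-fold lower in the treated library at 73.4% of the fuzzy positions with cyproterone acetate (background 38.1% of all positions in the table) and at 59.5% with tamoxifen (background 39.1%). At least 2-fold higher were 1.74% (background 37.4%) and 3.18% (background 33.1%) in the authors' deposited tables. At sharper positions the authors' deposited tables give 73.6% and 65.5% at least 2-fold lower, and 1.52% and 2.10% at least 2-fold higher. The authors' deposited tables list an occupancy difference past a false discovery rate (FDR) of 0.05 for 4815 fuzzy positions, or 29.4%, with cyproterone acetate (background 13.4%) and for 2604, or 15.9%, with tamoxifen (background 16.6%). At sharper positions the authors' deposited tables list such a difference for 32.0% and 23.6%. Of the calls at fuzzy positions, 96.4% and 95.2% were at summits with no treated read. This share was 93.9% and 95.6% at sharper positions, and 77.9% and 65.3% over all matched positions. Among fuzzy positions with treated reads, 1.80% and 1.32% were called in the authors' deposited tables. With treated reads, 3.21% and 1.80% of sharper positions and 6.31% and 9.08% of all matched positions were called there. For fuzziness, at the same FDR limit, the authors' deposited tables give 9.61% of the fuzzy positions as lower with cyproterone acetate (background 10.1%) and 10.9% with tamoxifen (background 12.5%), and 0.603% (background 5.97%) and 0.927% (background 6.08%) as higher. At sharper positions the authors' deposited tables give 1.98% and 2.80% as lower in fuzziness, and 18.4% and 17.5% as higher. All of these calls compare a treated library with the pool that chose the positions, both treatments share that pool, and nothing is read from the shares.

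The treated summit lay close to the control summit. Where a treated summit and reads were listed, its distance from the pooled summit had a median of 20 bp (quartiles 0 and 30 bp) at fuzzy positions in both treatments, and a median of 20 bp (quartiles 10 and 40 bp) at sharper ones. Summits fell on the same base at 26.8% of fuzzy positions with cyproterone acetate and 26.5% with tamoxifen, against 19.7% and 18.6% of the sharper ones. Summits at least 50 bp apart made up 15.6% and 15.8% of fuzzy and 17.4% and 18.4% of sharper positions. Over all matched positions, which also lie outside the occupancy band, the median distance was shorter, at 10 bp in both treatments. Of these, 39.0% and 39.1% had summits on the same base, and 13.2% and 14.0% had them at least 50 bp apart. Fuzzy positions more often had no separate treated summit, at 13.8% and 14.0% against 3.77% and 3.85% of the sharper ones. The matching keeps positions whose centre, the mean of both summits, is alike in both tables, which favours small distances. Without matching, and again over positions with a treated summit and reads, the median was 30 bp in both treatments at fuzzy and at sharper positions, and 29.2% of fuzzy against 36.6% of sharper positions were at least 50 bp apart with cyproterone acetate.

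The position with the highest pooled score was chr2:49293642-49293842 (rn6, as are all that follow). It scored 78.7 in the pool, 79.1 with cyproterone acetate on 4 reads and 79.3 with tamoxifen on 1 read. The deeper control scored 75.2 on 3 reads and the shallower had no summit read there. All 3 scores are within 1 unit of each other, the closest agreement among the 5 positions chosen for pooled fuzziness. The next were chr2:195116192-195116392 (pool 74.6, cyproterone acetate 69.6, tamoxifen 76.8), chr2:156816792-156816992 (74.5, 65.1 and 61.5) and chr2:160888022-160888222 (73.9, 69.2 and 69.7). At chr2:449512-449712 the pool scored 74.3 and cyproterone acetate 69.3, while tamoxifen, with 5 reads, scored 50.6. Thus 4 of these 5 positions were above 55 in both treated libraries. Of these, chr2:195116192-195116392 had only 1 cyproterone acetate read and 0.5 tamoxifen reads. The treated reads were 4 and 3 at chr2:156816792-156816992, and 12 and 3 at chr2:160888022-160888222. At 1 treated read, 47.0% and 47.3% of all fuzzy positions scored 55 or more.

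Another 5 positions had the highest scores in both treated libraries, among 2294 fuzzy positions with a treated occupancy of at least 12 in both. At chr2:199669762-199669962 the scores were 76.3 with cyproterone acetate (2.5 reads) and 75.1 with tamoxifen (3 reads), against 66.3 in the pool. At chr2:179951722-179951922 they were 73.0 (3 reads) and 77.7 (4.5 reads), against 62.6. At chr2:193572002-193572202, with 5 and 10 treated reads, they were 73.9 and 71.1, against 66.4. At chr2:24923202-24923402 they were 69.6 and 70.2, against 63.1, and the fifth was chr2:160888022-160888222, where cyproterone acetate had 12 reads and tamoxifen 3. At 4 of the 5 both treated libraries scored above the pool, and at chr2:160888022-160888222 both scored below it. These positions were picked for high treated scores, so scores above the pool are partly set by the choice. Among all fuzzy positions with treated reads, 74.9% (cyproterone acetate) and 75.1% (tamoxifen) scored below the pool.

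The 5 positions with the lowest scores in both treated libraries had few reads, and all 10 treated scores were below that of a lone read. At chr2:191372462-191372662 the scores were 31.8 with cyproterone acetate (4 reads) and 33.8 with tamoxifen (2 reads), against 55.7 in the pool. At chr2:207652322-207652522, chr2:217964537-217964737, chr2:225212852-225213052 and chr2:236491772-236491972 cyproterone acetate had 3 reads and scored 32.3 to 33.2, tamoxifen had 2 reads and scored 33.8 at each, and the pool scored 55.7 to 59.9. At chr2:236491772-236491972 the deeper control had 4 reads with a score of 34.8 and the shallower had none at the summit. Single libraries, treated or not, could thus score low where the pool was fuzzy. The tamoxifen score of 33.8 was also the 5th percentile at both fuzzy and sharper positions with treated reads. With 2 to 4 reads, and picked as the lowest of 2294 positions, these treated scores do not show a sharply placed nucleosome.

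**Figure D5:**
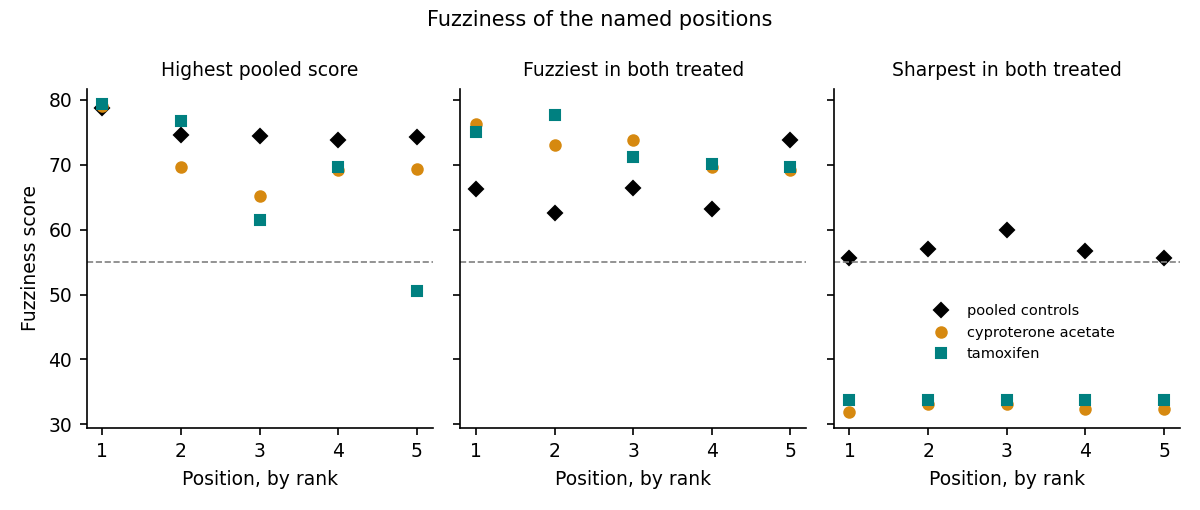
Fuzziness score in the pooled controls (diamonds, cyproterone acetate table), the cyproterone acetate library (circles) and the tamoxifen library (squares) at the 5 positions with the highest pooled score (left), the 5 fuzziest (middle) and the 5 sharpest (right) in both treated libraries, in order of rank. In the left and middle panels all treated scores but 1 lie above the dashed limit of 55, and in the right panel all 10 lie between 31.8 and 33.8.

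A few fuzzy positions held many treated reads. At chr2:410067-410267 the treated libraries had 30.5 (cyproterone acetate) and 22.5 (tamoxifen) reads against 4 in the pool, and log2 ratios in the authors' deposited tables of 3.23 and 3.16. At chr2:164119012-164119212 they had 20 and 30 reads against 4 in the pool, with ratios of 2.68 and 3.57 in the authors' deposited tables. The remaining positions with the highest ratios in both treatments, chr2:232178337-232178537, chr2:231824782-231824982 and chr2:80767427-80767627, had 14 to 18.5 reads in each treated library against 3.16 in the pool. Treated scores at these 5 positions ranged from 35.6 to 57.7, and of the 10 scores only that of tamoxifen at chr2:80767427-80767627 reached 55 or lay above the pool.

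At the other end, chr2:115439512-115439712 had 8.53 pooled reads and 3 and 2 treated reads, with ratios of -5.29 and -5.19 in the authors' deposited tables. The treated summits lay 80 and 60 bp from the pooled one, and no treated read covered the pooled summit. The same held at chr2:169849187-169849387, chr2:133267542-133267742, chr2:204940687-204940887 and chr2:27483367-27483567, with treated summits 70 to 90 bp away and 1 to 5 treated reads. Such ratios record reads in another place within the position, not their absence. By the summit values alone, tamoxifen at chr2:133267542-133267742 stood at 35.6 units against 33.7 in the pool.

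At the score limit, the positions just inside were chr2:247854127-247854327, chr2:151883382-151883582 and chr2:231894112-231894312, each with 2.84 pooled reads and a score of 55.0 in the cyproterone acetate table. The last 2 had the same scores in the controls, 31.5 for 3 reads in the deeper control and 80.5 in the shallower, which had no read at the summit. Just outside were chr2:112268032-112268232, chr2:3810082-3810282 and chr2:109260092-109260292, with 3.90 to 4.84 pooled reads. They fell just under 55 in the cyproterone acetate table only and scored 55.03 to 55.05 in the tamoxifen table. They thus belong to the 239 positions left out of the comparison. The treated scores on both sides of the limit ranged widely, from 33.8 to 55.0 inside and from 39.1 to 61.7 outside where reads were present.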

How the data were processed

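Per the submitters' processing notes, reads were aligned with Bowtie2 and handled with SAMtools 1.4 on build rn6. The program that placed the nucleosomes is not given in the sources used. Of the deposited tables, 3 on chromosome 2 were used: each treatment against both controls pooled, and the controls against each other. Per the file headers, each row gives a 200 bp position with summit positions and distances in bp, the occupancy at the summit as a coverage signal scaled by the authors, and a fuzziness score for each side. Per the file headers, the authors also computed log2 ratios and an FDR (an adjusted p-value). Log2 ratios were turned to treated over pool. The deposited log2 ratios put 1 unit in place of a side at 0. A score of 62.0 in the deposited tables marks a side with no read in the position. A further 30 columns of values per side, most of them of chromosome X, were left unused.

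Positions, limits and comparison sets were chosen with earlier results of these data known. The smallest step of each library's occupancy was taken as the value of 1 read, and read totals were not used. Pooled reads are occupancy over the mean of the 2 control steps and are approximate. Named positions were the 5 highest in pooled fuzziness, the 5 fuzziest and 5 sharpest in both treated libraries (occupancy at least 12 in both), the 5 highest and 5 lowest in both occupancy ratios (the latter with reads in both), and 3 on each side of the score limit. Positions are not replicates of a condition. Exact (Clopper-Pearson) 95% intervals cover counting error only, since PCR copies (5 rounds) carry no molecular identifiers. Matching, the choice of positions and the median intervals were tested on simulated data. The read steps were not tested in this way. Python 3.11.15, pandas 2.3.3, numpy 2.4.6, scipy 1.17.1 and matplotlib 3.10.9 were used. Base composition and gene annotation, which need a genome of build rn6, were not analysed here, and no sequence is printed.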

Additional observations from a re-analysis of the deposited data

How the results depend on the processing

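The depth of about 3 pooled reads at a position limits all scores, and a treated library has a median of 1 read at the summit. No paired analysis was possible because the groups share fewer than 2 replicate numbers. Base composition and annotation were not run. A value is given below where it left the 95% interval of the reported one, cyproterone acetate before tamoxifen. Matching centres at 0 bp gave 8120 positions, treated fuzziness 57.5 and 57.5, log2 occupancy ratios -3.76 and -3.65, summit distances 0 and 0 bp and empty summits 64.0% and 64.2%. At 5 bp these were 52.2 and 51.9, -3.71 and -3.60, 10 and 10 bp, 49.5% and 49.5%. At 20 bp fuzziness was 49.4 and 49.2, the ratios -1.57 and -1.30, and empty summits 36.3% and 36.3%. A score limit of 50 gave 42899 positions, fuzziness 48.9 and 48.4, and empty summits 40.1% and 41.1%. A limit of 60 gave 4266 positions, 52.2 and 53.4, a tamoxifen ratio of -1.54, distances of 10 and 10 bp, and 43.4% empty with cyproterone acetate. Occupancy of 16 to 40 gave 5869 positions, 50.9 and 51.0, ratios of -1.90 and -1.60, and 38.6% and 36.3% empty. Occupancy of 12 to 30 moved nothing. The sign of the ratio turned with at least 3 treated reads (0.30 and 0.50, fuzziness 46.5 and 45.9) and, for tamoxifen, with a treated occupancy of at least 12 (-0.14 and 0.13, fuzziness 47.3 and 47.3); both settings keep only positions with high treated occupancy. Relative to the median of all matched positions the ratios were -0.64 and -0.31. Leaving out 1 control from the choice gave fuzziness of 52.5 to 54.3 and 52.7 to 54.5, and ratios of -2.59 to -2.35 and -2.07 to -1.77.

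For positions chosen on the deeper control, and then on the shallower, the scores in the other control, cyproterone acetate and tamoxifen were 46.3, 48.3 and 47.6, then 46.1, 48.8 and 48.7, with at least 3 reads. They were 47.4, 48.2 and 49.2, then 45.9, 48.5 and 48.8, with the read number of the choosing library. They were 46.1, 50.2 and 49.7, then 47.4, 50.8 and 50.6, at a limit of 50, and 52.0, 53.8 and 54.9, then 54.3, 60.2 and 59.0, at a limit of 60. The order (other control lowest) was the same in each of these settings. Other settings were added after seeing the data. Summit values gave ratios of -0.60 and -0.30. Positions with the nearest neighbour at least 150 bp away had fuzziness 43.2 and 42.6, or 48.6 and 47.9 by the spacing of the other table. Without matching, fuzziness was 49.1 and 48.9, empty summits 29.0% and 29.0%, ratios -1.53 and -1.26 and distances 30 and 30 bp. Except where a setting itself selects on the treated reads, the cause of these shifts was not tested.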
